A study of Mus musculus with 4 samples.

Results

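The genes described here encode the phagocyte NADPH oxidase and its GTPases: Cybb, Cyba, Ncf1, Ncf4, Rac1 and Rac2. They were taken by name from a table of 18751 distinct gene names, and all 6 had a row and passed the filter on low counts. The RNA came from PMN-MDSCs, the polymorphonuclear kind of myeloid-derived suppressor cell, which resemble neutrophils and inhibit T cells in hosts with tumours. There were 2 libraries from CD300ld KO mice, which lack the myeloid receptor CD300ld, and 2 from wild-type (WT) mice. Mice of both genotypes were C57BL/6 animals of 8 weeks that carried subcutaneous B16-F10 tumours, a transplantable mouse melanoma, and the cells were taken at day 15 by magnetic neutrophil enrichment. The labels name neither the organ nor the part of the gene that was removed. They also leave it unsaid whether each library is a separate animal, so the p-values speak of library-to-library spread, which may be technical.

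The phagocyte oxidase passes electrons from NADPH across a membrane to oxygen and so makes superoxide, from which hydrogen peroxide and other oxidants arise. Cybb (gp91phox, or NOX2) and Cyba (p22phox) form the membrane flavocytochrome. Cytosolic subunits, among them Ncf1 (p47phox) and Ncf4 (p40phox), join it on activation together with GTP-bound Rac, and reactive oxygen from this enzyme is among the known means by which PMN-MDSCs restrain T cells. Loss of a subunit causes chronic granulomatous disease in humans.

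Counts per library totalled 830931 and 835510 in KO, against 674599 and 920839 in WT. Cd300ld had 2 and 3 counts in KO, against 0 and 11 in WT, too few to check the genotype labels. The 14 neutrophil markers were all detected, yet with erythroid markers at 15.1% to 20.6% of counts per library and neutrophil markers at 0.515% to 3.78% the libraries describe a mixed preparation. Mast cell and basophil markers summed to 0 and 12.9 CPM in KO and to 2.99 and 135.8 CPM in WT, so WT library 2 stood apart in them. The chi-square per gene was 2.58 within the KO pair, 2.98 within the WT pair and 8.57 to 9.36 across genotypes.

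Promoter sequence from RefSeq (build GRCm38.p6) was matched to 3 of the 6 genes, Cybb, Cyba and Ncf1. The 250 bases before each start are shown for these 3, the only ones of the 6 with promoter sequence in the source used. Among the 6 genes Cybb and Ncf1 had the most negative log2 fold changes, and Cyba, the partner of Cybb, a smaller one. Motifs could not be looked for in the other genes, and no relation of motifs to fold changes was tested. Capitals mark matches on either strand to 4 motifs: GAGGAA (the core of PU.1 sites), GAAA written 2 times with any 2 bases between (as in interferon response elements), TTGCNNAA (as in C/EBP sites) and TATAAA. The regions are chrX:9469325-9469574 for Cybb, chr5:134229626-134229875 for Ncf1 and chr8:122432941-122433190 for Cyba, all on the minus strand.
Cybb: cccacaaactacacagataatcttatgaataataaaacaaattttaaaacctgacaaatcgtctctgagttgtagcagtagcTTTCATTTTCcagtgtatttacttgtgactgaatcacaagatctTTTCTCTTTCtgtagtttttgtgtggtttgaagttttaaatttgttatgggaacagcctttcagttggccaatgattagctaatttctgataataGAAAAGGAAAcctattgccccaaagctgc
Ncf1: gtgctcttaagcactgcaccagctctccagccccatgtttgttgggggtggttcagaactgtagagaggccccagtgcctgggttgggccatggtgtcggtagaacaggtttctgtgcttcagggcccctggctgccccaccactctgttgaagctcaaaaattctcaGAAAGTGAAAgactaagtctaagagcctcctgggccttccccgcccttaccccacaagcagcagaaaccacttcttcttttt
Cyba: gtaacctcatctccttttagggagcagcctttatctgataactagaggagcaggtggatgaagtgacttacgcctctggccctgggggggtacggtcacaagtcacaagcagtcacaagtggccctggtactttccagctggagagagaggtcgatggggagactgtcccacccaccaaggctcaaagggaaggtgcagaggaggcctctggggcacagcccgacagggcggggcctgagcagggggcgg
Every capital run is a match to the GAAA pair or its reverse complement, and none of them overlap. Cybb held 3, which begin 168, 124 and 29 bases before the start, and Ncf1 held 1, which begins 82 bases before it. Cyba held none, and the other 3 motifs had no match in these windows. Over 32851 promoter windows of 250 bases, 2.98% held the GAAA pair, 23.3% GAGGAA, 9.56% TTGCNNAA and 12.4% TATAAA. The Cybb window was AT-rich, with 34.0% G and C, against 54.4% for Ncf1, 60.0% for Cyba and a median of 52.4% over all windows. A match describes letters and not binding, and nothing here measured a factor at these sites.

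Setting KO against WT addresses how the genotype given by the labels relates to the transcripts of these mixed preparations. Of the 6 genes, 5 were lower in KO and 0 higher in the edgeR fit over 7685 genes (adjusted p below 0.05). Over all tested genes 3.27% were called lower and 2.71% higher. The genes that fell were Cybb, Ncf1, Ncf4, Rac2 and Cyba, from 3.46-fold to 1.72-fold lower, and Rac1 was the one that did not pass. For each of the 6 genes both KO libraries lay below both WT libraries, a pattern that 23.6% of all tested genes showed. The median log2 fold change was −1.01 over the 6 genes and 0.00294 over all tested genes. The genes were picked with earlier results of these libraries known, so the counts describe them and are no separate evidence. In bulk RNA, fewer cells of a type and less RNA per cell cannot be told apart.

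**Figure D1:**
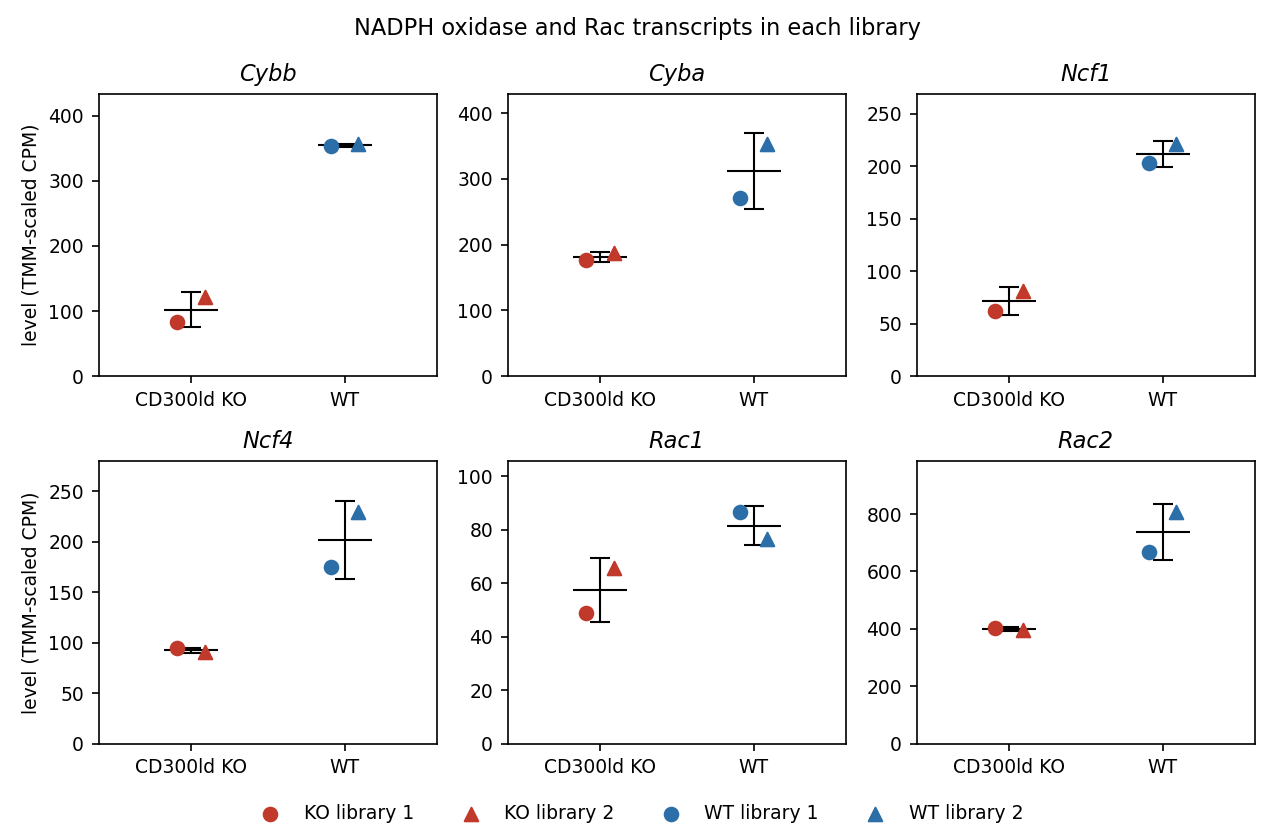
Level of each gene in every library, in CPM (counts over the TMM-scaled library total), on axes that start at 0. Red points are the 2 KO libraries, blue points the 2 WT libraries, black bars the mean and whiskers the SD. For each gene both KO points lie below both WT points, with the narrowest gap for Rac1, at 65.8 CPM in KO library 2 and 76.5 CPM in WT library 2.

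Cybb, the catalytic subunit that carries the haem and flavin groups, had 68 and 103 counts in KO libraries and 236 and 330 in WT libraries. Scaled to library size this was 83.3 and 121 CPM in KO, against 353 and 356 CPM in WT. The KO libraries differed more from each other than the WT libraries did, and the groups stood far apart. Cybb was 3.46-fold lower in KO, with a log2 fold change of −1.79 ± 0.20 (SE, adjusted p = 2.59e-05 in edgeR). Only 31 of the 7685 tested genes had a smaller p. Leaving out each library in turn gave −2.09 to −1.56.

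Cyba encodes p22phox, the subunit that stabilises gp91phox and docks p47phox, and it also serves other NADPH oxidases. It had 144 and 159 counts in KO libraries and 181 and 327 in WT libraries. In CPM this was 176 and 187 in KO, against 270 and 352 in WT, so that the WT libraries spread widely and the KO libraries lay close together. Cyba was 1.72-fold lower in KO, with a log2 fold change of −0.78 ± 0.18 (SE, adjusted p = 0.0133 in edgeR). That call rested on WT library 2: without it the log2 fold change was −0.58 with an adjusted p of 0.138. An annotated gene on the opposite strand, Gm20388, overlaps Cyba but shares no run of 30 bases with its longest transcript.

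Because both partners of the flavocytochrome are measured in each library, their ratio needs no scaling between libraries. There were 0.472 and 0.648 Cybb counts per Cyba count in KO libraries, and 1.30 and 1.01 in WT libraries. The groups did not overlap, and the mean log2 ratio was −0.85 in KO and 0.20 in WT, a difference of −1.05. With 2 libraries against 2 an exact two-sided permutation test cannot reach the threshold, and no other test of this difference was run. The ratio compares unequal changes of 2 transcripts and does not count protein.

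Among the cytosolic subunits, Ncf1 encodes p47phox, the organiser that is phosphorylated on activation and bridges to p22phox. It had 51 and 69 counts in KO libraries and 136 and 205 in WT libraries, or 62.5 and 81.1 CPM in KO and 203 and 221 CPM in WT. The spread within each genotype was small beside the gap between them. Ncf1 was 2.95-fold lower in KO (log2 fold change −1.56 ± 0.22, SE, adjusted p = 0.000229 in edgeR). Its gene overlaps Gtf2ird2 on the opposite strand, and 9.95% of the 30-base runs of its longest transcript also occur in Gtf2ird2 transcripts. Gtf2ird2 itself had 3 and 1 counts in KO, against 5 and 6 in WT. The strand setting of the counting is not given in the sources used here, so reads of that stretch cannot be assigned to either gene.

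Ncf4 encodes p40phox, which binds a phosphoinositide of the phagosome membrane. It had 77 counts in each KO library and 117 and 213 in the WT libraries. As CPM these were 94.3 and 90.5 in KO, against 175 and 230 in WT. The KO libraries were nearly alike and WT library 1 was the lower WT library. Ncf4 was 2.20-fold lower in KO, with a log2 fold change of −1.14 ± 0.21 (SE, adjusted p = 0.00300 in edgeR). The ratio of Ncf1 to Ncf4 counts was 0.662 and 0.896 in KO libraries and 1.16 and 0.962 in WT libraries, a mean log2 difference of −0.46 with no test.

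Hvcn1, the proton channel that balances the charge moved by the oxidase, had 89 and 84 counts in KO, against 73 and 90 in WT. Its log2 fold change was 0.02 ± 0.23 (SE, adjusted p = 0.984 in edgeR), and it turned to −0.070 without KO library 1 and to −0.079 without WT library 2. The difference between Hvcn1 and the subunits was not tested.

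**Figure D2:**
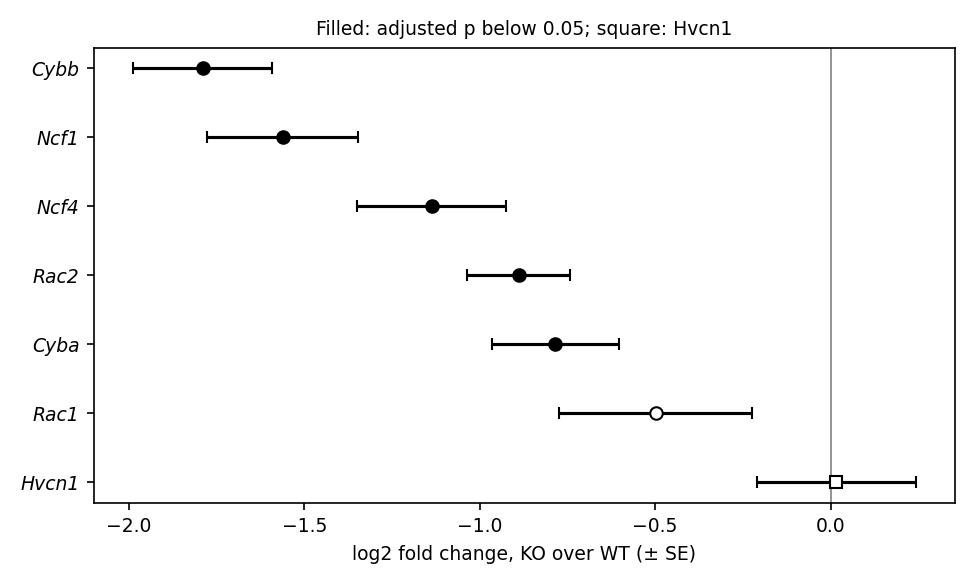
Log2 fold change of KO over WT with its SE for the 6 genes (circles) and for Hvcn1 (square), where filled symbols have an adjusted p below 0.05 in edgeR. Cybb lies farthest to the left at −1.79, Rac1 is open at −0.50, and Hvcn1 sits at 0.02.

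Rac2 is the Rac GTPase of blood cells and the main one that activates the oxidase in mouse neutrophils, where it also drives movement. It had 329 and 336 counts in KO libraries and 447 and 749 in WT libraries, the most counts of the 6 genes. Its level was 403 and 395 CPM in KO, against 668 and 807 CPM in WT. The KO libraries were close to each other and both lay well below the lower WT library. Rac2 was 1.85-fold lower in KO, with a log2 fold change of −0.89 ± 0.15 (SE, adjusted p = 0.00109 in edgeR).

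Rac1, the widely expressed paralog, which serves the oxidase in macrophages and the actin cytoskeleton in most cells, had 40 and 56 counts in KO libraries and 58 and 71 in WT libraries. Its level was 49.0 and 65.8 CPM in KO and 86.7 and 76.5 CPM in WT. The groups did not overlap but came close. Its log2 fold change was −0.50 ± 0.28 (SE, adjusted p = 0.359, unadjusted p = 0.0887 in edgeR), which misses the threshold and shows neither a change nor its absence. Rac1 overlaps Daglb on the opposite strand over much of its length: 55.2% of the 30-base runs of its longest transcript also occur in Daglb transcripts. Daglb had 29 and 30 counts in KO, against 10 and 47 in WT, so the counts of Rac1 are uncertain if reads were counted without strand. Rac1 and Rac2 share 0 runs of 30 bases.

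The libraries held 8.22 and 6.00 Rac2 counts per Rac1 count in KO, and 7.71 and 10.5 in WT. The groups overlapped, and a shift of the balance between the GTPases was not tested. With 2 libraries against 2 an exact two-sided permutation test cannot reach the threshold, whatever the values. The doubt about Rac1 counts from the overlap with Daglb holds for this ratio too. Per kilobase of the longest transcript the ratio was 11.3 and 8.21 in KO and 10.6 and 14.4 in WT, so Rac2 stood above Rac1 in every library on either scale. The mean log2 ratio was 2.81 ± 0.32 in KO and 3.17 ± 0.32 in WT (SD, n = 2 each).

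Some of the genes lie near one another. Ncf4 and Rac2 are both on chromosome 15 with 10 protein-coding genes between them in the mouse annotation (GENCODE M21). Of these 10 genes 4 were tested, and 1 was lower and 0 higher, beside 3.27% lower and 2.71% higher over all tested genes. Csf2rb, named for that count after its values were seen, encodes the shared β chain of cytokine receptors and had a log2 fold change of −0.83 ± 0.23 (SE, adjusted p = 0.0391 in edgeR). Ncf1 and Rac1 share chromosome 5 but have 184 protein-coding genes between them. Cybb is on chromosome X and Cyba on chromosome 8.

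As profiles over the 4 libraries, centred log2 levels of Cybb and Ncf1 lay 0.29 apart and those of Cyba and Rac2 0.16, whereas Cybb and Cyba lay 1.11 apart (Euclidean distance). Of 2806 other tested genes with a mean of at least 50 CPM, those nearest to the mean profile of Cybb, Cyba, Ncf1 and Ncf4 were Sh3bgrl3, Lrg1, Myo1f, Lgals1 and Cd9, at distances of 0.0877 to 0.180. Sh3bgrl3, a small thioredoxin-fold protein gene, had 119 and 137 CPM in KO libraries and 315 and 345 CPM in WT libraries. Lrg1, which encodes a secreted leucine-rich glycoprotein, had 100.5 and 115 CPM in KO and 224 and 260 CPM in WT. Nearest to Rac2 were Cnn2, Hbxip, Eif2b2, Nsun2 and H2-K1, at 0.0344 to 0.102. Cnn2, encoding the actin-binding calponin 2, had 172 and 169 CPM in KO and 294 and 351 CPM in WT. With 4 libraries these distances describe likeness and carry no test.

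Around the 6 genes, 7 lists held other genes of oxidase assembly, Rac control and peroxide handling. Of 93 names 85 had a row and 60 were tested, of which 6 were lower and 2 higher. Among all tested genes, 3.27% were called lower and 2.71% higher, the shares beside which the counts of each list stand. Medians below are log2 fold changes of KO over WT, beside 0.00294 over all tested genes. Scaling to pan-leukocyte genes moved the median of all genes to 0.44, and with it the 7 list medians, all below 0 as reported, lay between 0.07 and 0.35. The low-count filter was run anew for each fit with 1 library left out and kept more genes. List medians of those fits can therefore cover other genes than those reported. When 1 library was left out, the medians of Rac activators (−0.26 to −0.18), Rac inhibitors (−0.38 to −0.065, with −0.065 without WT library 2) and upstream kinases (−0.47 to −0.27) stayed below 0. Those of the other lists turned, to 0.074 for oxidase partners and 0.25 for transcription factors without WT library 2, to 0.04 for Rac effectors without WT library 1 and to 0.019 for peroxide handling without KO library 2. With the filter of 1 CPM or with none, which let in genes of lower counts, the median of oxidase partners was 0.75 and 0.37, and with the filter of 1 CPM that of transcription factors was 0.093.

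Of 12 tested Rac activators, the exchange factors and their adaptors, 0 were lower and 0 higher, and 8 lay below 0 (median −0.37). Unadjusted p was under 0.05 for 3 of them, DESeq2 called 0 and limma-voom 0. Vav1, the exchange factor downstream of tyrosine kinases in blood cells, had 74 counts in each KO library and 110 and 115 in WT libraries, a log2 fold change of −0.69 ± 0.23 (SE, adjusted p = 0.0933 in edgeR). Its adjusted p was 0.0398 without WT library 2. Dock2, the main Rac exchange factor of leukocyte migration, had 105 and 70 counts in KO, against 83 and 105 in WT, with groups that overlapped. Its log2 fold change of −0.17 turned to 0.12 without KO library 2 and to 0.27 with scaling to pan-leukocyte genes.

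Of 7 tested Rac inhibitors 1 was lower and 0 higher (median −0.24). Arhgdib encodes the blood-cell GDP dissociation inhibitor, which holds Rac in the cytosol until activation. It had 304 and 311 counts in KO libraries and 650 and 978 in WT libraries, or 372 and 365 CPM in KO and 971 and 1054 CPM in WT. Both KO libraries were far below both WT libraries, and Arhgdib was 2.75-fold lower in KO (log2 fold change −1.46 ± 0.14, SE, adjusted p = 3.42e-06 in edgeR). Arhgdia, the widely expressed form, named after its values were seen, had 373 and 274 counts in KO, against 271 and 507 in WT, and did not pass (adjusted p = 0.433 in edgeR). The difference between the forms was not tested.

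Rac effectors had 2 of 9 tested genes lower and 0 higher (median −0.15). Cyfip2 and Cyfip1, alternative subunits of the WAVE complex through which Rac drives actin branching, had log2 fold changes of −0.80 ± 0.21 and −1.41 ± 0.40 (SE, adjusted p = 0.0259 and 0.0456 in edgeR). Cyfip1 had 15 counts in each KO library and 31 and 46 in WT libraries, and its call was lost whichever library was left out, with adjusted p from 0.0660 to 0.153. The Cyfip2 call was lost without KO library 1 (adjusted p = 0.146) and without WT library 1 (adjusted p = 0.137). Both calls were also lost with DESeq2 (adjusted p = 0.0852 for Cyfip2 and 0.216 for Cyfip1) and with scaling to pan-leukocyte genes (adjusted p = 0.257 and 0.112), and that of Cyfip1 with the filter of 1 CPM (adjusted p = 0.0815).

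The kinases and adaptors that prime the oxidase had 0 of 13 tested genes lower and 0 higher (median −0.35), with 2 at an unadjusted p under 0.05, and DESeq2 and limma-voom called 0. Prkcd, the protein kinase C form that phosphorylates p47phox, had 116 and 105 counts in KO, against 102 and 128 in WT. Pik3cd, the catalytic phosphoinositide 3-kinase subunit of leukocytes, had 86 and 99 counts in KO libraries and 89 and 87 in WT libraries. Its log2 fold change of −0.02 ± 0.24 (SE, adjusted p = 0.984 in edgeR) turned to 0.22 without WT library 1 and to 0.42 with scaling to pan-leukocyte genes, which also turned Prkcd from −0.13 to 0.31. Among transcription factors known to act on oxidase genes, 1 of 6 tested was lower and 0 higher (median −0.29), and 2 were lower without KO library 1, without WT library 1, with limma-voom and with no filter. Cebpe, needed for the late steps of granulocyte maturation, had 9 and 12 counts in KO libraries and 52 and 71 in WT libraries, a log2 fold change of −2.60 ± 0.37 (SE, adjusted p = 0.000304 in edgeR). Of the 2 tested oxidase partners, BC017643 and Hvcn1, 0 were lower or higher in edgeR (median −0.093), with 0 at an unadjusted p under 0.05, and DESeq2 and limma-voom called 0. BC017643 had 87 and 80 counts in KO libraries and 57 and 132 in WT libraries, and its log2 fold change of −0.20 ± 0.26 turned to 0.23 without WT library 2 and to 0.25 with scaling to pan-leukocyte genes.

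Genes that use or remove hydrogen peroxide went both ways, with 2 of 11 tested lower and 2 higher (median −0.15). Mpo, whose myeloperoxidase turns hydrogen peroxide into hypochlorous acid, had 431 and 296 CPM in KO libraries and 1405 and 2549 CPM in WT libraries, 5.45-fold lower in KO (adjusted p = 3.39e-06 in edgeR). Prdx5, a peroxiredoxin, had 87.0 and 85.8 CPM in KO and 259 and 293 CPM in WT, 3.20-fold lower (adjusted p = 3.93e-05 in edgeR). Gpx1 and Prdx2, peroxidases that are abundant in red cells, were 1.63-fold and 1.43-fold higher in KO (adjusted p = 0.000201 and 0.00559 in edgeR). Without KO library 1 the call of Prdx2 was lost (adjusted p = 0.0880). Erythroid markers, of which 9 of 13 tested were higher in KO and 0 lower, summed to 191058 to 210009 CPM in KO and 152385 to 160581 CPM in WT, and their part in the rise of Gpx1 and Prdx2 was not tested.

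**Figure D3:**
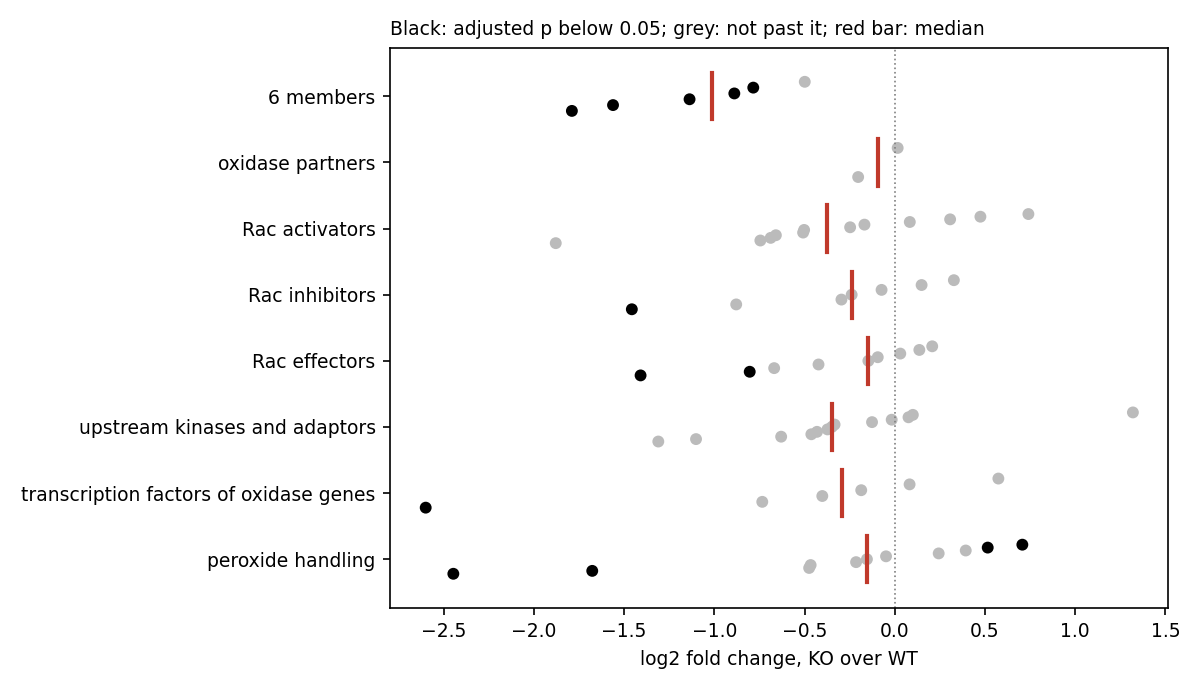
Log2 fold change of KO over WT for each tested gene of the 6 described genes and of the 7 lists, 1 point a gene, black where the adjusted p is below 0.05 in edgeR and grey where it is not, with red bars at the medians. The 6 genes have a median of −1.01, and the medians of the 7 lists lie between −0.37 and −0.093.

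Some markers of neutrophils, monocytes and macrophages were lower in KO, as oxidase genes were, whereas dendritic markers were not. For the marker counts below, and the erythroid ones above, the shares over all tested genes were 3.27% lower and 2.71% higher. Neutrophil markers were lower in 11 of 14 cases with 0 higher, and summed to 5055 and 5619.9 CPM in KO and to 33592 and 37529 CPM in WT. Ly6g, the surface marker of mouse neutrophils, had 8 counts in each KO library and 49 and 90 in WT libraries. Monocyte markers were lower in 3 of 7 tested cases and summed to 374 and 442 CPM in KO and 879 and 1057 CPM in WT. Macrophage markers were lower in 3 of 8 tested cases and summed to 336 and 436 CPM in KO and 746 to 776 CPM in WT. Of 5 tested dendritic markers 0 were lower and 1 was higher. Their sums were 148 and 240 CPM in KO libraries and 163 and 129 CPM in WT libraries. B cell markers, from cells that also express oxidase subunits, were higher in 1 of 9 tested cases and summed to 6002 and 6666 CPM in KO and 4506 and 5256 CPM in WT. No listed marker with a row was at 0 in every library. The part of these cell types in the oxidase values was not tested.

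Counts of Cybb, Cyba, Ncf1 and Ncf4 together were set against each marker list within a library. There were 0.0741 and 0.0948 oxidase counts per neutrophil marker count in KO and 0.0298 and 0.0309 in WT, higher in both KO libraries. Per monocyte marker count there were 1.11 and 1.09 in KO and 1.14 and 1.10 in WT, a mean log2 difference of −0.02. Against 6 genes of leukocytes in general (Ptprc, Coro1a, Lcp1, Laptm5, Cd53 and Cd48) the ratio was 0.189 and 0.218 in KO and 0.347 and 0.376 in WT, lower in both KO libraries. The sums of markers rest on their most abundant genes. S100a8, S100a9, Ngp, Ltf and Lcn2 hold most of the neutrophil marker counts and had log2 fold changes of −3.29 to −2.56, whereas those of Csf3r (−0.16), Cxcr2 (−0.46) and Retnlg (−0.55) did not pass in edgeR and were nearer to 0 than that of Cyba. Among monocyte markers Ly6c2 had the most counts in WT (log2 fold change −2.04). Fn1 (−0.23), Csf1r (−0.52), Ccr2 (−0.94) and Cx3cr1 (0.47) did not pass. The ratios therefore differ with the marker they are set against.

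**Figure D4:**
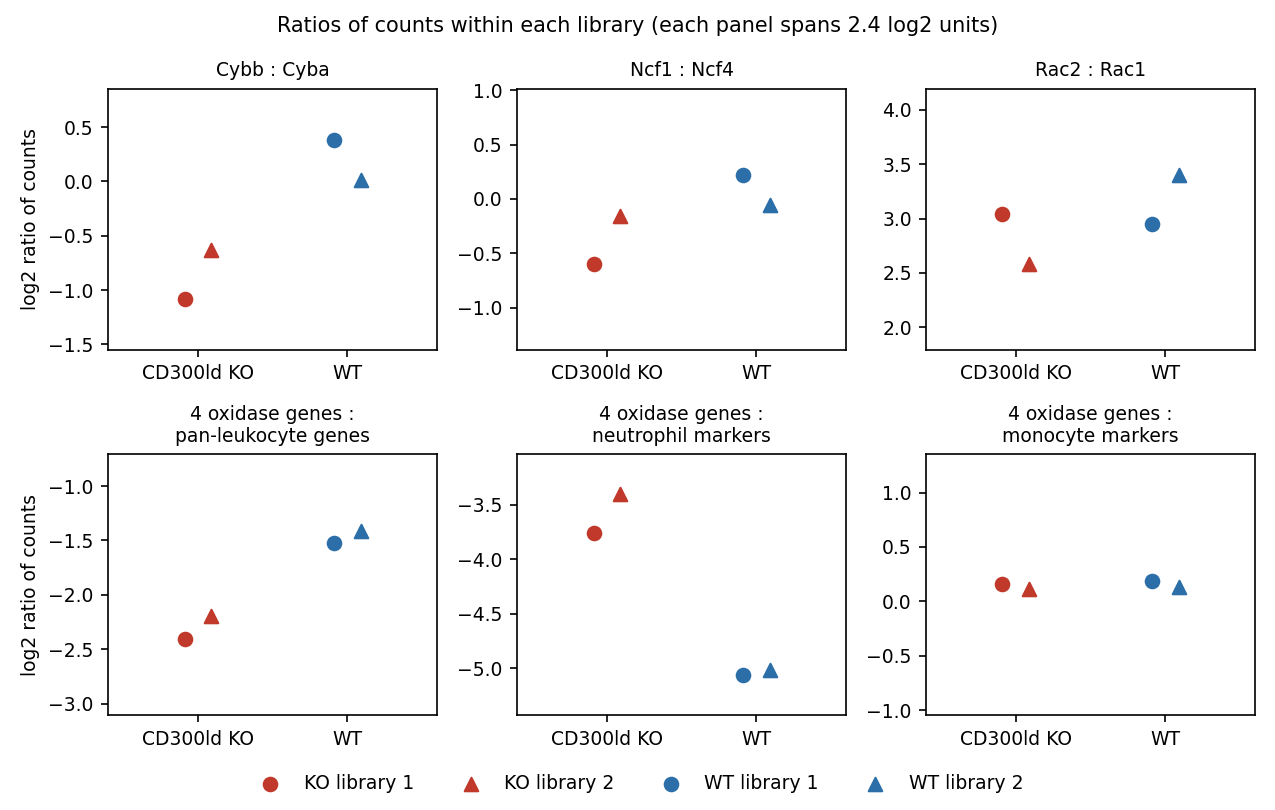
Log2 ratios of counts within each library, KO in red and WT in blue, with each panel spanning the same number of log2 units. Cybb to Cyba and the 4 oxidase genes to pan-leukocyte genes are lower in both KO libraries, the 4 oxidase genes to neutrophil markers are higher in both, and those to monocyte markers lie between 0.12 and 0.19 in all libraries.

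Scaling to those 6 leukocyte genes in place of TMM was one of the alternatives. It gave Cybb −1.35 ± 0.21, Ncf1 −1.12 ± 0.23, Ncf4 −0.69 ± 0.22 and Rac2 −0.45 ± 0.15 on the log2 scale (SE, adjusted p = 0.000129, 0.00167, 0.0325 and 0.0479 in edgeR). Cyba no longer passed at −0.34 ± 0.19 (adjusted p = 0.219), and Rac1 stood at −0.06 ± 0.29. Changing the scaling moves every gene by nearly the same amount, here 0.44 in the median over all genes. Relative to that shift the values had to lie close to those with TMM, which is no separate evidence.

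**Figure D5:**
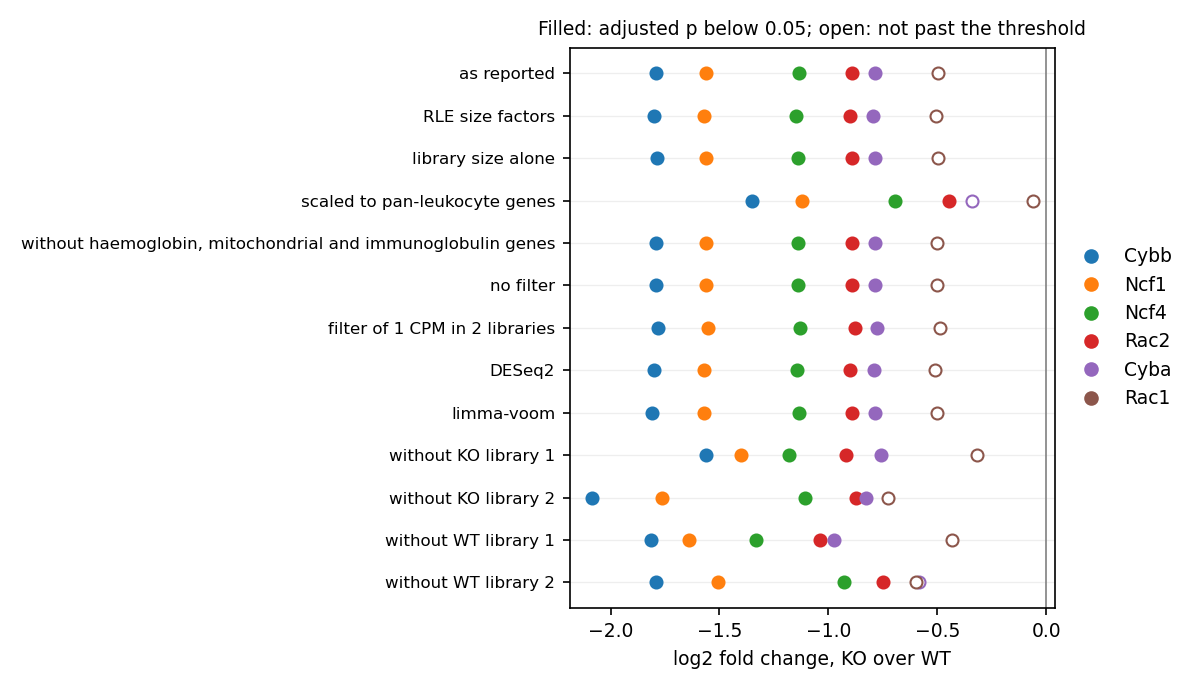
Log2 fold change of KO over WT for the 6 genes as reported and under 12 other settings, filled where the adjusted p is below 0.05. No point lies above 0, Rac1 is open throughout, and Cyba is open with scaling to pan-leukocyte genes and without WT library 2.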

How the data were processed

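The authors deposited whole-number read counts per gene name for 2 KO and 2 WT libraries, with no normalization. TRIzol extraction of total RNA and an Illumina TruSeq RNA kit are stated, per the labels' protocols. Bowtie 0.12.2, mm8 and mm9 are listed per the submitters' processing notes, but not what each was for. The sources used here give no counting program, annotation or strand setting. The 21831 rows held 18751 names, of which 205 stood on several rows with identical values, and each name was kept once. Column names gave the genotype but not the sample, so library numbers are only names and no pairing was used.

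The fit used edgeR 4.0.16 (R 4.3.3): filterByExpr by genotype (minimum count 10, minimum total 15), TMM scaling, the quasi-likelihood test of KO over WT and Benjamini-Hochberg adjustment over 7685 genes, with a threshold of 0.05. The SE is the log2 fold change divided by the square root of F. CPM used TMM-scaled totals of all counts. In simulated data the procedure recovered 30% of genes changed 2-fold and 77% of those changed 4-fold, and 2.73% of calls were false. A gene without a call, or a list with 0 called, can therefore still hold changes of these sizes. A count of 0 has an upper limit of 3 counts, 3.26 to 4.45 CPM, which covers counting error only. Profiles used log2 CPM with a prior count of 2. Alternatives were RLE factors, library size alone, scaling to 6 pan-leukocyte genes, leaving out haemoglobin, mitochondrial and immunoglobulin genes, a looser filter (1 CPM in 2 libraries) or none, the tools DESeq2 1.42.0 and limma-voom (limma 3.58.1) and leaving out each library, whose partner was then assumed to vary like the others.

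The 6 genes and all lists were chosen with earlier results of these data known. From each list of the pathway the text names genes with adjusted p below 0.05, up to 6 by smallest p, or the 2 most abundant where none passed, and Hvcn1 in any case. Arhgdia was added after its values were seen, and the single markers beside the ratios were named by their counts and fold changes. Some planned results are not reported here. Like profiles were the 5 nearest genes of at least 50 CPM, without predicted or unnamed transcripts. Ratios to marker lists were added to the planned comparisons. GENCODE M21 and RefSeq gave transcripts, neighbours and promoters of GRCm38, a build that the notes do not name.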

Additional observations from a re-analysis of the deposited data

How the results depend on the processing

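No paired analysis was possible because the labels' sample numbers are not shared between genotypes and the columns are not tied to samples. Cybb, Ncf1, Ncf4 and Rac2 passed under all alternatives that kept every library, DESeq2 and limma-voom included, and Rac1 under none of them. None of the 6 genes changed direction under any of the 12 alternatives. All of them reuse the same counts and are no separate evidence. The Cyba call was lost with scaling to pan-leukocyte genes (−0.34, adjusted p = 0.219) and without WT library 2. When 1 library was left out, the log2 fold change of Cyba ran from −0.98 to −0.58, the number of the 6 genes called lower was 4 to 5, and list genes called higher numbered 1 to 2, with 1 without KO library 1. Scaling to pan-leukocyte genes gave 1339 called genes, 1181 higher and 158 lower, against 459, 208 and 251, and 7 list genes higher, against 2. The pan-leukocyte genes themselves summed to 2202 and 2197 CPM in KO and to 2883 and 3083 CPM in WT. Scaling to them moved the median of all genes to 0.44. DESeq2 called 299 genes, 124 higher; the cause was not tested. Of genes that did not pass in edgeR, scaling to pan-leukocyte genes turned the direction of Dock2 (0.27), Prkcd (0.31), Pik3cd (0.42) and BC017643 (0.25), and limma-voom that of Pik3cd (0.021). Leaving out 1 library turned Dock2 (−0.54 to 0.12), Pik3cd (−0.27 to 0.22), BC017643 (−0.52 to 0.23) and Hvcn1 (−0.079 to 0.087). Cyfip1 had only 15 counts in each KO library, and the part of counting error in its lost calls was not tested.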
